A study of Mus musculus with 3 samples.

Results

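The genes described here are 10 cell adhesion molecules outside the integrin family: Vcam1, Icam1, Alcam, Mcam, L1cam and Ncam1 of the immunoglobulin family, the cadherins Cdh2 and Cdh11, the hyaluronan receptor Cd44, and Cd47. They were taken by name, whatever their values, with every array probe that the platform annotation pairs with 1 of them. These are 30 probes and 10 genes, of 34885 probes and 19057 genes that could be named on the array.

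RNA was profiled in 3 mouse lines that all derive from LLC/luc, a Lewis lung carcinoma line of C57BL/6 background that carries a luciferase gene. The LLC/luc BM 2nd cells are the second generation of in vivo selection and were grown out of the marrow of mice that had received BM 1st cells by injection into the heart. The LLC/luc BM 1st cells are the first generation, grown in the same way from male C57BL/6 mice injected with parental cells. The parental LLC/luc cells (P) had not passed through a mouse in this selection, although the labels use the word osteotropic for their cell type as well. All 3 lines were grown in DMEM with fetal bovine serum and the labels name no treatment. Each line was measured on 1 Illumina mouse bead array, so no value has a replicate, no p-value is given, and a difference between lines cannot be told apart from a difference between cultures or arrays. BM lines were established from whole marrow cultures, which can carry host cells.

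Adhesion molecules of these families hold tumour cells to each other, to matrix and to the cells they meet in a vessel or in the marrow. VCAM-1 is bound by the integrin alpha4 beta1 of leukocytes and osteoclast precursors, and ICAM-1 by alphaL beta2. ALCAM, MCAM, L1 and NCAM bind copies of themselves or related proteins on a neighbouring cell, cadherins pair with like cadherins and are tied to actin by catenins, CD44 binds hyaluronan, and CD47 binds thrombospondin and the phagocyte receptor SIRP alpha. Several of them are known from work on cancer cells that home to or grow in bone marrow.

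The deposited values are linear intensities on a common quantile-normalized scale, with a median of 101 and with the background left in. A probe was counted as above background when its intensity exceeded the 95th percentile of 1503 probes for olfactory and vomeronasal receptors, genes that a carcinoma line is not expected to use. That level was 109 on the parental array, 110 on the BM 1st array and 107 on the BM 2nd array, and the genes that exceeded it numbered 9660, 9548 and 10015 in the same order. Since the background was not removed, the ratio of a dim probe understates the change in its RNA. A gene entered a comparison when its brightest probe exceeded background on 1 or both of the arrays compared, and was called higher or lower when its log2 ratio was past 1 or -1, a 2-fold difference. As a guide to measurement error, the receptor probes had a log2 SD of 0.12 in each comparison, and the probes of 1 gene differed with a median SD of 0.14 in BM 2nd over P, 0.13 in BM 1st over P and 0.14 in BM 2nd over BM 1st, among 3154 genes with at least 2 probes above background on all arrays. This spread between probes is not a spread between cultures.

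Most of the 10 adhesion genes showed no difference past the threshold between the lines. Only Vcam1, Cd44 and Cd47 were bright, and for dim genes a small ratio does not show that the RNA differed little. None was called higher or lower in BM 2nd cells over parental cells or in BM 1st cells over parental cells, and 1, Alcam, was called lower in BM 2nd cells over BM 1st cells. Of the 10 genes, 8 entered each comparison, while L1cam and Cdh11 had no probe above background on any array. In BM 2nd over P, 0 of the 8 were higher and 0 were lower, where 1.83% of 10578 genes were higher and 1.53% were lower. In BM 1st over P the counts were again 0 and 0, where 2.04% of 10375 genes were higher and 1.79% were lower. In BM 2nd over BM 1st, 0 were higher and 1 was lower, where 3.01% of 10558 genes were higher and 1.78% were lower. At such shares, 8 genes are too few for these counts to set the adhesion molecules apart from other genes. The median log2 ratio of the 8 genes was 0.0022 in BM 2nd over P, -0.12 in BM 1st over P and 0.14 in BM 2nd over BM 1st, beside medians over all genes compared of 0.0071, -0.0079 and -0.01 in the same comparisons.

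**Figure D1:**
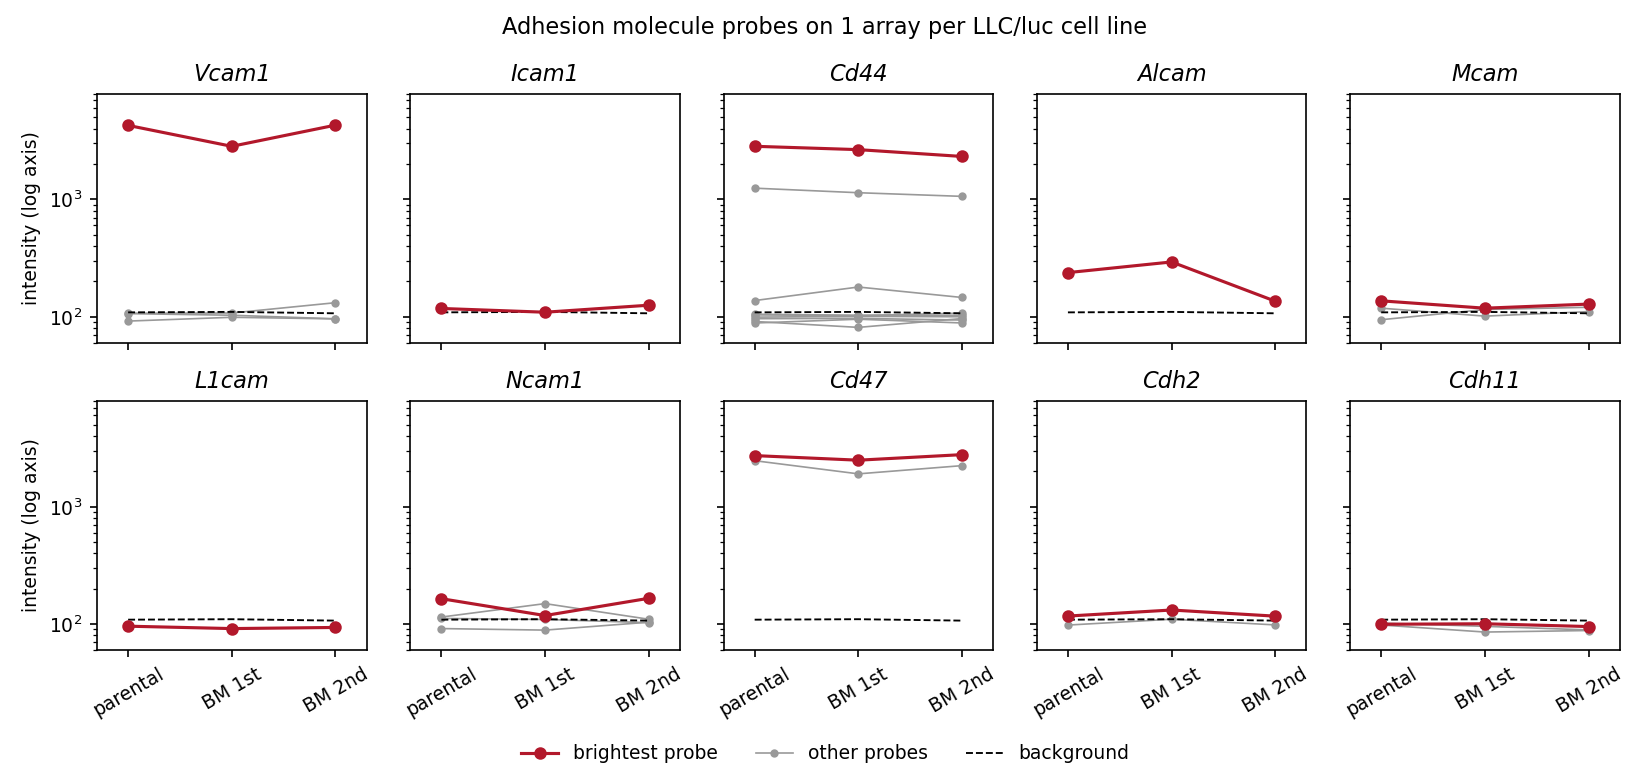
Intensity (log axis) of each of the 30 probes in parental, BM 1st and BM 2nd cells, 1 panel per gene and 1 array per line. The thick line is the brightest probe of the gene, grey lines are its other probes, and the dashed line is the background level of 109, 110 and 107. Vcam1, Cd44 and Cd47 had probes well over background in all 3 lines, and Alcam was dimmer in BM 2nd cells than in the other two.

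Vcam1, the endothelial and stromal ligand of alpha4 beta1 integrin, gave a bright signal in all 3 lines. Its brightest probe, ILMN_2778655, which is matched to the RefSeq transcript, read 4277 in parental cells, 2836 in the BM 1st line and 4299 in the BM 2nd line. The BM 1st value was the low one, and the other 2 lay within 0.51% of each other. The log2 ratio was 0.0073 in BM 2nd over P, -0.59 in BM 1st over P and 0.60 in BM 2nd over BM 1st. None of these is past the 2-fold threshold, while the last 2 exceed in size the 90th percentile of the SD between probes of 1 gene, 0.32 in BM 1st over P and 0.34 in BM 2nd over BM 1st. Averaged over the Vcam1 probes above background they were -0.29 and 0.45, and over all 4 probes -0.13 and 0.19. That SD holds no spread between arrays or cultures. Among all genes compared, 6.12% had a lower BM 1st over P ratio than Vcam1. A ratio larger in size was held by 12.5% in BM 1st over P and by 14.9% in BM 2nd over BM 1st. The other 3 Vcam1 probes, matched to cDNA clone records, stayed between 91.8 and 131.8 on all arrays. Of these, 1 was above background in BM 2nd cells alone, at 131.8 against 107.2 in parental cells, with a log2 ratio of 0.30.

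The alpha4 beta1 integrin that binds VCAM-1 was read on the same arrays. Itgb1, the beta1 chain, read 323 in parental cells, 358 in the BM 1st line and 336 in the BM 2nd line, with log2 ratios of 0.06 in BM 2nd over P and 0.15 in BM 1st over P. Itga4, the alpha4 chain, had 6 probes and none above background on any array. Endothelium is a cell type that carries VCAM-1. The endothelial markers held 15 genes, of which 6 were above background in parental cells, 5 in the BM 1st line and 5 in the BM 2nd line, and their summed intensity was 3773, 2988 and 4030 in that order. This sum was lowest in BM 1st cells, as was Vcam1, and was led by Egfl7, at 1637, 1156 and 1856. Eng was also lowest in BM 1st cells, while Flt1, at 307, 346 and 441, and Kdr were lowest in parental cells. The fibroblast and marrow stroma markers, described further below, summed to 4572, 11669 and 19958 and were lowest in parental cells. The part of either cell type in the Vcam1 difference was not tested. The defining endothelial genes Pecam1 and Cdh5 were not above background on any array. Within that list, Ramp2, a subunit of the adrenomedullin receptor, was past the threshold in BM 1st over P at -1.24. Egfl7, Eng at 415, Ramp2 at 321 and Flt1 were also above background in parental cells, which had not passed through a mouse in this selection. Which cells made this RNA was not tested. In a culture, fewer cells of a type and less RNA per cell cannot be told apart.

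Icam1, the ligand of alphaL beta2 and a textbook gene induced through NF-kB, was close to background throughout. Its single probe read 118 in parental cells, 109 in the BM 1st line and 125 in the BM 2nd line, and was above background in parental and BM 2nd cells but not in BM 1st cells. The log2 ratio was 0.09 in BM 2nd over P, -0.11 in BM 1st over P and 0.20 in BM 2nd over BM 1st. With the BM 1st array at its background level, the BM 2nd over BM 1st ratio is a bound of at least 1.14-fold. With background subtracted the log2 ratios were 0.43, -0.55 and 0.98 in the same comparisons, none past the threshold. The integrin alphaL gene, Itgal, was not above background on any array, and Itgb2, the beta2 chain of leukocyte integrins, read 101 in parental cells, 115 in the BM 1st line and 109 in the BM 2nd line, with log2 ratios of 0.11 in BM 2nd over P and 0.19 in BM 1st over P.

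The promoter of Icam1 is shown because NF-kB and STAT factors are known to act on it, and because 5 genes of an NF-kB list, described next, were past the threshold in the BM lines over parental cells while Icam1 was not. The sequence is from RefSeq, build GRCm38.p6, the 250 bases before the start of the gene at chr9:21015690-21015939 on the plus strand, 5′ to 3′.
Icam1: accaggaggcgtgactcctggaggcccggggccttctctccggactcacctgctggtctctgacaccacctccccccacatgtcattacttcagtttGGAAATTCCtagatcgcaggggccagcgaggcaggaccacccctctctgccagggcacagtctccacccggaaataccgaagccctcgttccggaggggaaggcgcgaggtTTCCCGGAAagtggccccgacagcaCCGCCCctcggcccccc
Capitals mark 3 matches. GGAAATTCC, the letters of the kappa-B site known from the human ICAM1 promoter, stood at positions -153 to -145 counted from the start, a STAT-type match TTCCCGGAA at -42 to -34, and a GC box, read as CCGCCC on this strand, at -17 to -12. The 3 do not overlap. Both strands of 32851 promoter windows of the same length were searched, of which GGAAATTCC was present in 94 (0.286%), TTCNNNGAA in 2306 (7.02%) and GGGCGG in 10756 (32.7%). RefSeq promoter entries were found for 6 of the 10 genes, in 8 windows, and none for Vcam1, Ncam1, Cdh2 and Cdh11. Among the 8 windows, GGAAATTCC and TTCNNNGAA were each found in 1, that of Icam1, the NF-kB consensus in 0 (3.9% of all windows), the AP-1 site TGANTCA in 0 (6.75%), and GGGCGG in 7, of Alcam, Cd47, Icam1, L1cam and Mcam. A match describes the letters and not binding.

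A list of NF-kB subunits, inhibitors and inducible genes was read beside Vcam1 and Icam1. Of 16 listed genes 15 had a named probe and 13 entered. In BM 2nd over P, 5 of 13 were higher and 0 were lower, and the same counts were found in BM 1st over P, where 1.83% and 2.04% of all genes were higher. In BM 2nd over BM 1st, 0 of 13 were higher or lower. The other 8 were not past the threshold in either comparison with parental cells, among them the subunits Rela, Relb and Nfkb2, at 0.07, 0.0005 and -0.53 in BM 2nd over P. The median log2 ratio was 0.70 in BM 2nd over P, 0.39 in BM 1st over P and 0.00 in BM 2nd over BM 1st. The whole list was chosen with earlier results of these data known, and the study had picked out Ccl2 and Irf1 on these arrays. Its counts and direction are therefore not independent evidence, for these 2 genes or for the others.

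The 5 genes were the same in both comparisons with parental cells. Cxcl1, a neutrophil chemokine, read 3497 in parental cells, 33698 in the BM 1st line and 38855 in the BM 2nd line, with a log2 ratio of 3.47 in BM 2nd over P and 3.27 in BM 1st over P. Irf1, an interferon-induced transcription factor, read 1005 in parental cells, 7449 in the BM 1st line and 9813 in the BM 2nd line, with ratios of 3.29 and 2.89, and 4 of its 5 probes were past the threshold in both comparisons. Tnfaip3, which encodes the NF-kB inhibitor A20, read 140 in parental cells, 1563 in the BM 1st line and 1350 in the BM 2nd line, with ratios of 3.27 and 3.49. The remaining pair were Nfkbia, encoding the NF-kB inhibitor I-kappa-B alpha, at 2.59 and 2.87 with 2 of 2 probes past the threshold, and Ccl2, a monocyte chemokine, at 2.39 and 1.75. Beside these, Icam1 had 0.09 and -0.11 and Vcam1 0.0073 and -0.59 in the same 2 comparisons. Icam1 was read by a single probe close to background, where a small ratio does not show that the RNA differed little. No comparison of the 2 groups of genes was tested.

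**Figure D2:**
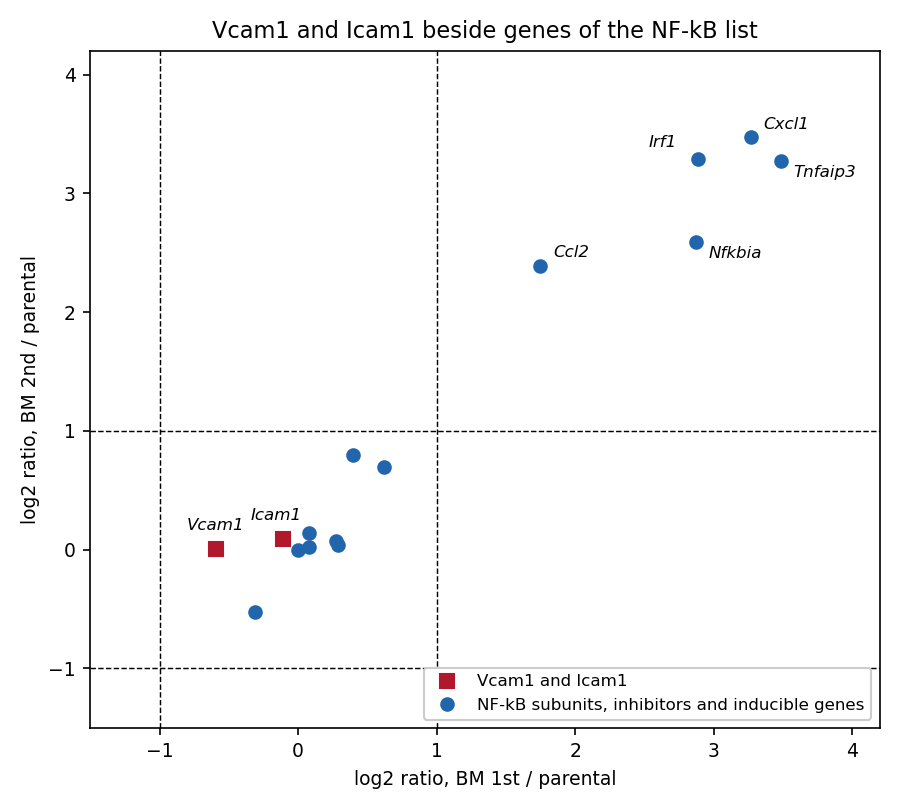
Log2 ratio of BM 2nd over parental cells (vertical axis) against log2 ratio of BM 1st over parental cells (horizontal axis) for Vcam1, Icam1 and the 13 entering genes of the NF-kB list, 1 point per gene read from its brightest probe, with dashed lines at 1 and -1. Cxcl1, Irf1, Tnfaip3, Nfkbia and Ccl2 lie past 1 on both axes, while Vcam1 and Icam1 lie inside the dashed lines, and both axes share the parental array.

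Alcam, which binds itself and the leukocyte receptor CD6, was the only one of the 10 genes past the threshold in any comparison. Its single probe, ILMN_2606804, read 238 in parental cells, 293 in the BM 1st line and 136 in the BM 2nd line, above background on all 3 arrays. BM 2nd cells were the low line, with a difference of -53.7% against BM 1st cells and of -43.0% against parental cells. The log2 ratio was -1.11 in BM 2nd over BM 1st, a 0.463-fold level, -0.81 in BM 2nd over P and 0.30 in BM 1st over P. Of all genes compared, 1.31% had a lower ratio in BM 2nd over BM 1st and 2.65% in BM 2nd over P. With background subtracted, the BM 2nd over P ratio was also past the threshold, at -1.73, as were 7.57% of all genes on the lower side under that setting. With only 1 probe there is no second reading of this gene. Cd6, the leukocyte receptor of ALCAM, was not above background on any array.

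The promoter of Alcam is shown because Alcam is the gene called lower in BM 2nd cells. It is the 250 bases before the start in RefSeq, build GRCm38.p6, at chr16:52453082-52453331 on the minus strand, 5′ to 3′.
Alcam: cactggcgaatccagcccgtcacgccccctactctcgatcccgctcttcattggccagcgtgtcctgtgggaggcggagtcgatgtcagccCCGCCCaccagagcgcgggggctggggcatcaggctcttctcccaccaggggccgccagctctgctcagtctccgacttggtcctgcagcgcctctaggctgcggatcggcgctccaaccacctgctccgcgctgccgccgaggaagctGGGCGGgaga
Capitals mark the 2 GC boxes, at -159 to -154 and at -10 to -5. This window held neither GGAAATTCC nor TTCNNNGAA, and a search of these letters says nothing about factors that use others.

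**Figure D3:**
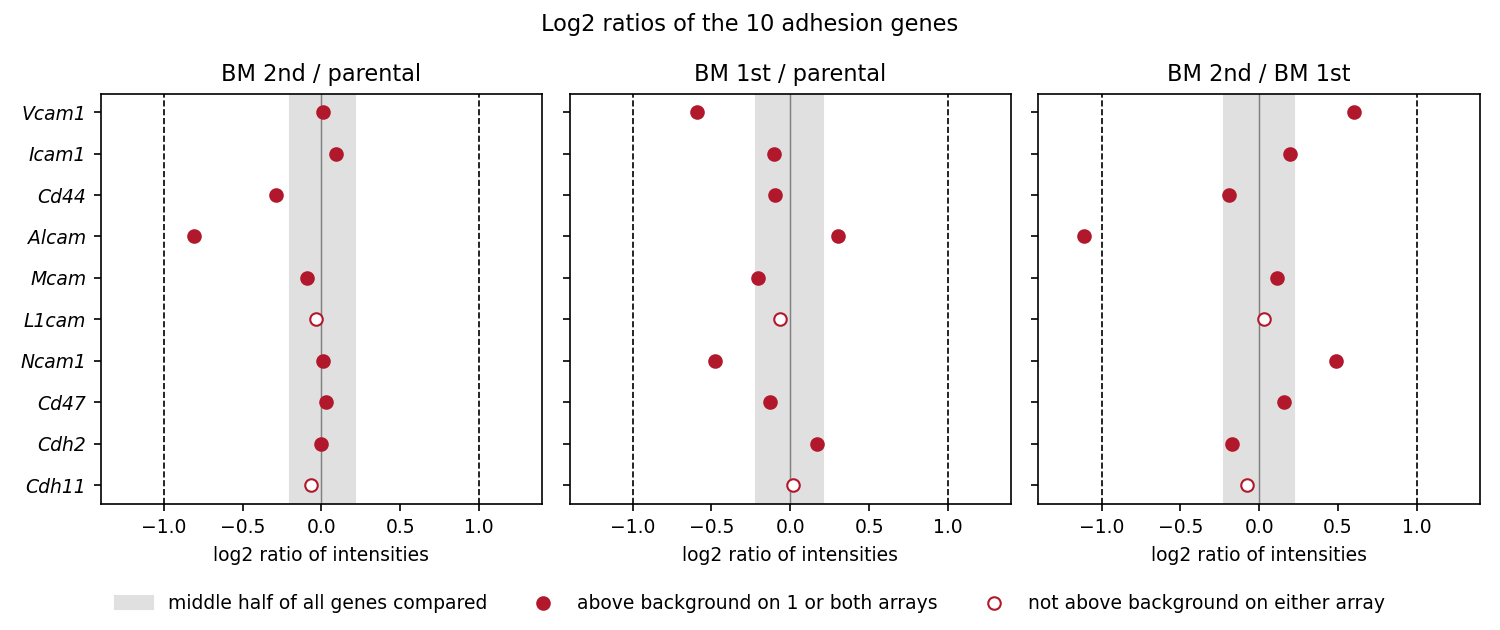
Log2 ratio of each of the 10 genes, read from its brightest probe, for BM 2nd over parental, BM 1st over parental and BM 2nd over BM 1st cells. The grey band spans the lower to the upper quartile of all genes compared (-0.20 to 0.21, -0.22 to 0.21 and -0.22 to 0.22), dashed lines are at 1 and -1, and open circles are genes not above background on either array. Alcam lies outside the band in every panel and outside the dashed lines in the panel for BM 2nd over BM 1st alone. Cd44 lies outside the band in BM 2nd over parental cells, and Vcam1 and Ncam1 in the panels that use BM 1st cells.

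Mcam, the melanoma cell adhesion molecule CD146, was near background in all 3 lines. Its brightest probe read 137 in parental cells, 118 in the BM 1st line and 128 in the BM 2nd line, with log2 ratios of -0.09 in BM 2nd over P and -0.21 in BM 1st over P. A second probe gave -0.10 and -0.23, and the third gave 0.35 and 0.29, with no signal above background in parental cells. The 3 probes did not share a direction in these 2 comparisons. In BM 2nd over BM 1st all 3 were slightly higher, at 0.12, 0.13 and 0.06. L1cam, a neural adhesion molecule, had a single probe, which read 95.9 in parental cells, 91.5 in the BM 1st line and 93.6 in the BM 2nd line, below background on every array.

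Ncam1, the neural cell adhesion molecule, gave readings that depend on the probe. Its brightest probe, ILMN_1237421, read 165 in parental cells, 118 in the BM 1st line and 166 in the BM 2nd line, with log2 ratios of 0.01 in BM 2nd over P, -0.48 in BM 1st over P and 0.49 in BM 2nd over BM 1st. A second probe on the same transcript, ILMN_3102825, read 115 in parental cells, 149 in the BM 1st line and 110 in the BM 2nd line, with log2 ratios of -0.06, 0.38 and -0.44 in the same comparisons. The BM 1st value was low by one probe and high by the other, so no direction can be given for Ncam1 in BM 1st cells. With background subtracted both probes were past the threshold in opposite directions, the brightest at -1.47 in BM 1st over P and 1.52 in BM 2nd over BM 1st, the second at 1.38 and -1.67. Of the other 2 probes, 1 was above background in parental cells only, at 112, and the last was at background throughout.

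Cd44, the hyaluronan receptor, was bright in all 3 lines and had 9 probes, of which 3 were above background on all arrays. The brightest read 2838 in parental cells, 2658 in the BM 1st line and 2325 in the BM 2nd line, with log2 ratios of -0.29 in BM 2nd over P, -0.09 in BM 1st over P and -0.19 in BM 2nd over BM 1st. The next probe read 1248 in parental cells, 1141 in the BM 1st line and 1062 in the BM 2nd line, with ratios of -0.23, -0.13 and -0.10. Both had their low value in BM 2nd cells, with differences of under 1.5-fold. A dimmer probe read 137 in parental cells, 179 in the BM 1st line and 146 in the BM 2nd line, and here BM 1st was the high line, with a ratio of 0.38 over P. A further probe was above background in BM 2nd cells alone, at 107, and the other 5 were at background on all arrays. Cd44 is spliced into many forms, and what each probe reads was not resolved here.

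Cd47, the "don't eat me" signal that binds SIRP alpha, was read by 2 bright probes with nearly the same pattern. The brighter read 2729 in parental cells, 2494 in the BM 1st line and 2781 in the BM 2nd line, with log2 ratios of 0.03 in BM 2nd over P, -0.13 in BM 1st over P and 0.16 in BM 2nd over BM 1st. The other read 2470 in parental cells, 1907 in the BM 1st line and 2241 in the BM 2nd line, with ratios of -0.14, -0.37 and 0.23. BM 1st cells gave the low value on both. Sirpa, the phagocyte receptor of CD47, read 90.6 in parental cells, 140 in the BM 1st line and 110 in the BM 2nd line, above background in both BM lines and not in parental cells.

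Of the 2 cadherins, Cdh2, N-cadherin, lay just above background on all arrays by 1 of its 2 probes, and Cdh11, the osteoblast cadherin, by none. That Cdh2 probe is matched to a cDNA clone record and the second to the RefSeq transcript. The brightest Cdh2 probe read 117 in parental cells, 132 in the BM 1st line and 117 in the BM 2nd line, with log2 ratios of -0.0029 in BM 2nd over P and 0.17 in BM 1st over P. Its second probe read 98.0 in parental cells, 109.9 in the BM 1st line and 98.3 in the BM 2nd line, above background in BM 1st cells alone, with a ratio of 0.17 in BM 1st over P. The 3 Cdh11 probes were not above background on any array, and the brightest read 99.6 in parental cells, 101 in the BM 1st line and 95.2 in the BM 2nd line. Over the 12 probes of the 10 genes that were above background on no array, the log2 ratios ran between -0.19 and 0.18 in BM 2nd over P, -0.20 and 0.11 in BM 1st over P and -0.11 and 0.25 in BM 2nd over BM 1st.

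Partners of the 10 genes were read from lists. Of 19 integrins and other counter-receptors or ligands, 17 had a named probe, and 0 of 9 entering were past the threshold in either direction in BM 2nd over P, 0 of 10 in BM 1st over P and 0 of 10 in BM 2nd over BM 1st. Their median log2 ratio was 0.10, 0.25 and -0.08 in these comparisons. Of the cytoskeletal and junction partners, among them the catenins, vinculin and the actinins, 0 of 10 were past the threshold in each comparison, with medians of 0.02, -0.11 and 0.13. Of the sheddases and intramembrane proteases, enzymes that cut CD44, ALCAM or cadherins from the surface, 0 of 7 were past it in each, with medians of -0.0030, 0.32 and -0.39.

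Related adhesion families held single genes past the threshold, and with so few genes entering, beside shares over all genes of 1.53% to 3.01%, these calls do not set a family apart. Among 30 other immunoglobulin-family adhesion molecules, 28 with a named probe, 0 of 13 were higher and 1 was lower in BM 2nd over P, 1 of 16 was higher and 1 lower in BM 1st over P, and 0 of 15 were higher and 1 lower in BM 2nd over BM 1st, with medians of -0.05, 0.04 and -0.02. Cxadr, the coxsackievirus and adenovirus receptor of epithelial junctions, read 314 in parental cells, 137 in the BM 1st line and 114 in the BM 2nd line, with log2 ratios of -1.46 in BM 2nd over P and -1.20 in BM 1st over P. Its other 2 probes did not pass, so this was 1 of 3 probes in each comparison. Pvr, the poliovirus receptor CD155, read 682 in parental cells, 1547 in the BM 1st line and 369 in the BM 2nd line, with log2 ratios of -0.88 in BM 2nd over P, 1.18 in BM 1st over P and -2.07 in BM 2nd over BM 1st, and all 3 of its probes above background were past -1 in the last of these. Pvr had, like Alcam, its high value in BM 1st cells and its low value in BM 2nd cells.

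Among other cadherins, 21 with a named probe, 0 of 3 were past the threshold in BM 2nd over P, 0 of 4 in BM 1st over P and 0 of 4 in BM 2nd over BM 1st, with medians of 0.04, 0.06 and -0.09. Cdh1, E-cadherin, read 121 in parental cells, 116 in the BM 1st line and 125 in the BM 2nd line. Among the selectins and their ligands, 0 of 4 were past it in BM 2nd over P, 1 of 6 was higher in BM 1st over P and 0 of 6 were past it in BM 2nd over BM 1st, with medians of 0.38, 0.43 and -0.14. The 1 was Sele, E-selectin of activated endothelium, which read 97.2 in parental cells, 229 in the BM 1st line and 136 in the BM 2nd line. Parental cells were not above background, so the BM 1st value was at least 2.09-fold that of parental cells, and its log2 ratio in BM 2nd over P was 0.49.

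Genes listed as markers of other cell types also differed between the lines. Of 17 leukocyte markers with a named probe, 3 were above background in parental cells, 11 in the BM 1st line and 6 in the BM 2nd line, and their summed intensity was 1861, 3661 and 2361. Over all 19057 genes, 9660, 9548 and 10015 were above background in that order. Some of the 11, such as Cd53 and Ptprc, lay only just above it. The leukocyte genes Lyz2, Laptm5 and Fcer1g did not exceed background in the parental line, so their differences are bounds. Lyz2, lysozyme of myeloid cells, had a ratio of at least 3.33-fold in BM 2nd over P and 9.84-fold in BM 1st over P, Laptm5 at least 1.68-fold and 3.36-fold, and Fcer1g at least 1.17-fold and 2.33-fold, while Tyrobp was above background on no array and Ptprc, which encodes CD45, was above it in BM 1st cells only, at 111. The 14 fibroblast and marrow stroma markers summed to 4572 in parental cells, 11669 in the BM 1st line and 19958 in the BM 2nd line. The rise lay mainly in Lum, at 198, 1742 and 6133, Dcn, at 1027, 6259 and 6174, and Dpt, at 142, 418 and 2213. Pdgfrb and Thy1 were above background on no array, Col1a2 and Lepr on 1 each, and Cxcl12 read 125, 128 and 120. In BM 2nd over P, 5 of 12 entering stroma genes were higher, with log2 ratios of 2.05 for Pdgfra, 2.59 for Dcn, 3.97 for Dpt and 4.95 for Lum, and a bound of at least 3.76-fold for Col1a1, beside 1.83% of all genes. The study had picked Lum, Dpt and Dcn on these arrays, and these 3 give no independent evidence of a direction. The list as a whole was also chosen with earlier results of these data known. In BM 2nd over BM 1st, 5 of 11 were higher and 0 were lower, beside 3.01% and 1.78% of all genes. The 5 were Lum, Dpt, Col1a1, Col3a1 and Fbln1. In BM 1st over P, where 2.04% of all genes were higher, 4 of 11 were higher, with log2 ratios of 1.56 for Dpt, 1.72 for Pdgfra, 2.61 for Dcn and 3.14 for Lum, and Fbln1 alone was lower, with -1.01. Probes of a gene disagreed in several cases. In both comparisons with parental cells, 1 of 2 Pdgfra probes and 2 of 3 Dcn probes were past the threshold. For Lyz2 1 of 2 was past it in BM 2nd over P, and for Fbln1 1 of 4 in BM 1st over P. In BM 2nd over BM 1st, 1 of 2 Col3a1 probes and 2 of 4 Fbln1 probes were past it. The osteoblast list summed to 869 in parental cells, 1241 in the BM 1st line and 870 in the BM 2nd line. The higher BM 1st sum came from Phex alone, which read 225, 611 and 149 and was past the threshold in BM 1st over P at 1.44. Sp7 was above background in BM 2nd cells only, at 197, and Bglap and Dmp1 were above it on no array. Of 13 epithelial markers, 5 were above background in parental cells, 4 in the BM 1st line and 4 in the BM 2nd line, with sums of 4485, 4339 and 4844, and Epcam and Krt19 were above it on no array. None of the epithelial markers was past the threshold in BM 2nd over P (0 of 5 entering) or in BM 1st over P (0 of 6), and 1 of 5 was higher in BM 2nd over BM 1st, the keratin gene Krt8 at 1.33. In that comparison, the one in which Alcam was called lower, 2 of 11 leukocyte markers were also lower, Lyz2 at -1.56 and Laptm5 just past -1, as was 1 of 4 osteoblast markers, Phex at -2.03, beside 1.78% of all genes, and 1 of 5 endothelial markers was higher, Ramp2 at 1.13. The part of these cells in the readings of the 10 adhesion genes was not tested.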

How the data were processed

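RNA of 3 cell lines was hybridised to Illumina mouse bead arrays, 1 per line. The authors deposited 1 table of linear intensities, which sorted differ between arrays by at most 0.274 and so are quantile normalized, with background not subtracted. The submitters' processing notes name GenomeStudio 2011.1, while the sources used here do not give the settings for normalization or background. The number of arrays limits the precision.

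Ratios on the log2 scale were made in Python 3.11.15 (pandas 2.3.3, numpy 2.4.6, figures in matplotlib 3.10.9). Of 45281 probes 34885 had 1 gene in the platform annotation, 18 several and 10378 none, and symbols were updated through RefSeq. Each gene was represented by its brightest probe by mean log2 intensity. The threshold was that of the study's methods. No value column was left unused. Counting was tested on simulated data in which only bright genes were changed, so that test does not cover dim genes such as Alcam.

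Named genes were all 10 adhesion genes, from each list every gene past the threshold in BM 2nd over P or BM 1st over P, up to 6 per list, and Itga4, Itgb1, Itgal and Itgb2. Other genes (Cd6, Sirpa, Cdh1 and further cell type markers) were named after their values were seen. Genes and lists were chosen with earlier results of these data known. Alternatives varied the filter, background, centring, probe choice and threshold.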

Additional observations from a re-analysis of the deposited data

How the results depend on the processing

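Of 66 alternative counts of the 10 genes past the threshold, 59 stayed as reported and 7 moved. With a 1.5-fold threshold, 1 gene was lower in BM 2nd over P (6.13% of all genes), 1 was lower in BM 1st over P (6.37%) and 1 was higher in BM 2nd over BM 1st (8.54%), and with background subtracted 1 was lower in BM 2nd over P (7.57%), 1 lower in BM 1st over P (8.96%) and 1 higher in BM 2nd over BM 1st (10.9%). With a log2 threshold of 2, 0 were lower in BM 2nd over BM 1st. Counting every named probe on its own was chosen after seeing the data and moved none of these counts. Of 192 alternative log2 ratios of single genes, 163 stayed within the median SD between probes and 29 moved beyond it, 13 with background subtracted, 8 with the mean of all probes and 8 with the mean of probes above background. None of them turned the sign of Alcam, but 10 others had the opposite sign, for Cdh2, Mcam, Cd47 and Ncam1 in BM 2nd over P, for Cd44 in BM 1st over P, and for Ncam1 in BM 2nd over BM 1st (-0.01 as the mean of probes above background, against 0.49). Background subtraction on each probe on its own, also chosen after seeing the data, put single dim probes past the threshold in either direction. Beside the Alcam and Ncam1 probes given above, these were at 1.47 for Vcam1 and 1.77 for Mcam in BM 2nd over P. In BM 1st over P they were at 1.08 for Cdh2 and, for different probes of Mcam, at 1.45 and -1.52. In BM 2nd over BM 1st they were at 1.38 for Vcam1, 1.06 for Mcam and -1.21 for Cdh2. Leaving out a replicate could not be done with 1 array per line. No paired analysis was possible because each line has 1 array. Dim probes, within the background of 107 to 110, cannot show a difference here.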
